A study of Homo sapiens and Mus musculus with 12 samples.

Results

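The genes described here are 7 human genes of epithelial cell adhesion and epithelial identity: CDH1, CTNND1, EPCAM, CLDN4, CLDN7, ESRP1 and ST14. For each, every SPDEF and GATA6 peak that lies in the gene or within 50 kb of either end was counted on hg19. This gave 12 of the 2775 peaks in the SPDEF list and 24 of the 10670 peaks in the GATA6 list. The lists come from CUT&RUN, in which an antibody directs a nuclease to chromatin and the released DNA fragments are sequenced. The cells were HPAF-II, an established human line of pancreatic ductal adenocarcinoma (PDA), and all of those used carried HA-tagged human SPDEF. The SPDEF group holds 3 libraries made with an antibody to the HA tag and the GATA6 group 3 libraries made with an antibody to GATA6. No treatment is given. The labels do not say what drives the tagged SPDEF or whether the line is 1 clone, and cells without the tag are not among these libraries. Each target has 1 list with no score and no value per library, so there is no replicate spread. The depth is unknown, and every interval below covers counting error only. The Poisson intervals treat peaks as independent and are too narrow where peaks lie close together, as at EPCAM and CTNND1.

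Epithelial cells are held together by adherens junctions, in which E-cadherin (CDH1) binds its like on the neighbouring cell and p120-catenin (CTNND1) binds the cytoplasmic tail of E-cadherin and keeps it at the surface. Above them, tight junctions built from claudins such as CLDN4 and CLDN7 seal the space between cells. EPCAM is a surface glycoprotein of epithelia that associates with CLDN7, ST14 encodes matriptase, a membrane-bound serine protease that can cleave EPCAM, and ESRP1 is an RNA-binding protein that sets epithelial splicing patterns. SPDEF is an ETS-family transcription factor of mucus-secreting epithelia, and GATA6 is a zinc-finger factor of endodermal epithelia that marks the classical subtype of PDA. PDA of that subtype keeps epithelial features, and the question addressed here is whether the peaks of either factor lie at these genes.

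Of the genes with a sequence in the promoter table used, CLDN4 was the one with a peak at its start: a GATA6 peak of 443 bp (chromosome 7, 73244749 to 73245191) covers position 73245 kb, where the gene begins. Its promoter window is therefore shown, 250 bases before to 50 bases after the start, from RefSeq on GRCh38.p14 (chr7:73830746-73831045, plus strand). Capitals mark GATA (the core bound by GATA factors), GGAT (the ETS core that SPDEF is known to favour) and GGAA (the core of most ETS factors) on either strand.

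CLDN4 promoter: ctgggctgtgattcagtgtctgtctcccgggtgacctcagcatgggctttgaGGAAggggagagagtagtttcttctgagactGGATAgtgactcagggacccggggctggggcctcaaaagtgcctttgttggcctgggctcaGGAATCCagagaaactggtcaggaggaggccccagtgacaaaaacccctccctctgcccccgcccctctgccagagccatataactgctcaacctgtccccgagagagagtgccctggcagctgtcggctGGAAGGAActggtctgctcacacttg

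The CLDN4 window holds 1 GATA, at bases 85 to 88 counted from its 5′ end. This GATA overlaps a GGAT at bases 84 to 87, so that 1 run of 5 bases carries both cores. A second GGAT lies on the opposite strand at bases 148 to 151 and overlaps a GGAA at bases 145 to 148. There are 4 GGAA in all, of which those at bases 275 to 278 and 279 to 282 lie downstream of the start. Such short cores are common: of 35116 promoter windows of the same length, 49.7% hold GATA, 76.5% GGAT and 95.5% GGAA on at least 1 strand. The longer GATAA, which 22.7% of the windows hold, is not in the CLDN4 window. Neither a match nor its absence in these letters shows whether the factor binds. The gene start is known on hg19 only to 1 kb and the window is on another build, so how much of the window the peak covers was not determined. Promoters were matched for 2 of the 7 genes, CLDN4 and CLDN7. The table has 2 starts for CLDN7. No peak of either list lay within 1 kb of that gene's start in hg19. The window at 1 CLDN7 start holds 1 GATA, 1 GGAT and 5 GGAA, and that at the other 0 GATA, 1 GGAT and 2 GGAA.

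Peaks of SPDEF were found at 6 of the 7 genes and peaks of GATA6 at all 7, CDH1 being the gene without an SPDEF peak. The 7 intervals, flanks included, span 1002 kb in all. They held 11.98 SPDEF peaks per Mb, against 0.896 per Mb over the genome, a ratio of 13.4 (exact 95% Poisson interval 6.91 to 23.4). They held 23.95 GATA6 peaks per Mb, against 3.45 per Mb over the genome, a ratio of 6.95 (4.45 to 10.3). With only the wider 50% of each list, the SPDEF ratio was 6.67 (3 peaks) and the GATA6 ratio was 7.51 (13 peaks). The SPDEF value lies below the SPDEF interval given above, but no interval is given for a ratio from so few peaks. Only 2 genes, CTNND1 and ESRP1, then kept an SPDEF peak. GATA6 peaks remained at 5 genes, not at CDH1 or EPCAM. For scale, the autosomes and X were cut into windows of 152 kb, the median interval length: 9.29% of 19963 windows held at least 1 SPDEF peak, 27.2% at least 1 GATA6 peak and 7.85% at least 1 of each. In windows lying in Giemsa-negative bands, which are rich in genes, the shares were 12.6%, 32.3% and 10.6%. Of the members, CTNND1 and ST14 lie in Giemsa-positive bands and the others in Giemsa-negative ones. No hg19 gene table was used here, so the counts could not be set against those at other genes. The genes were chosen with earlier results of these data known, so no p is given for them as a list.

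**Figure D1:**
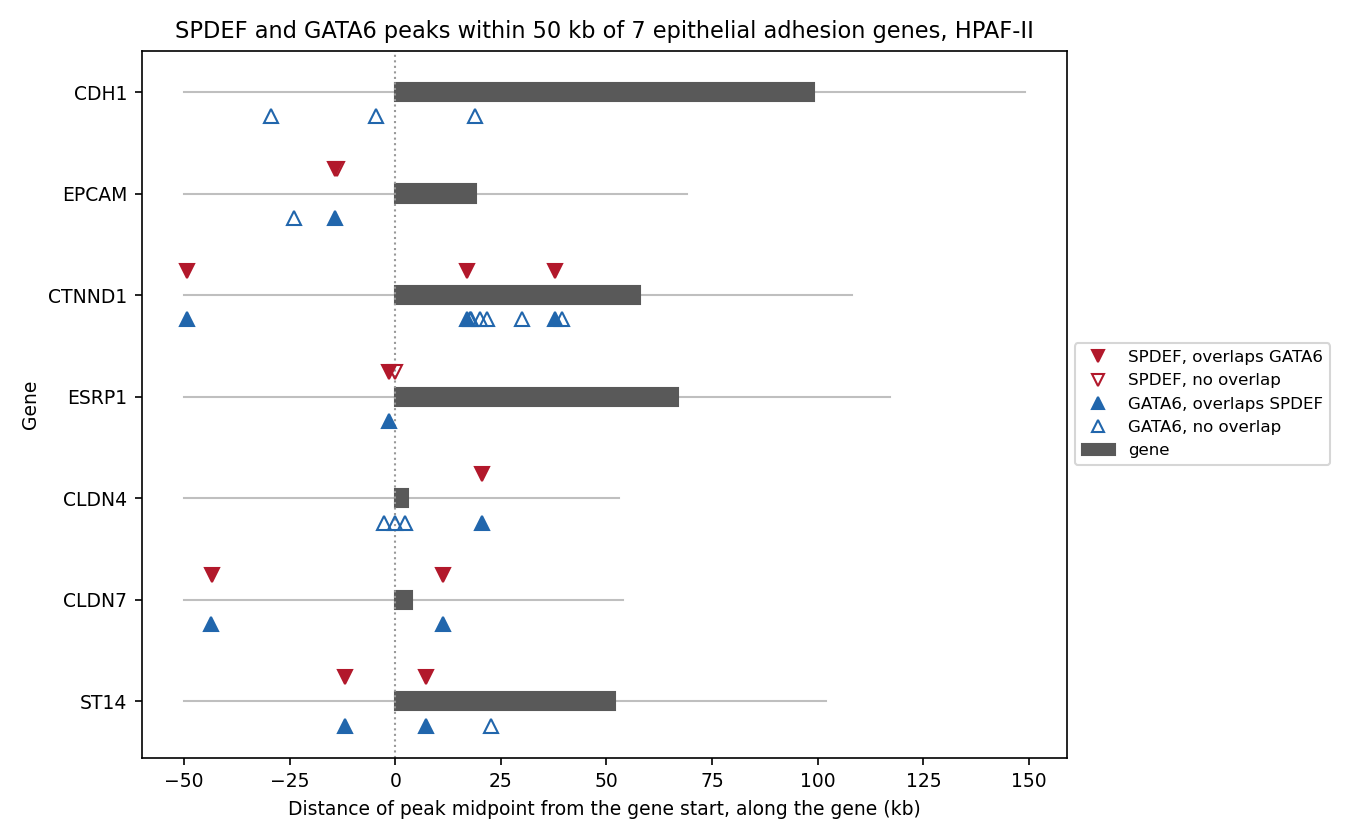
Positions of the 12 SPDEF peaks (red, above each line) and 24 GATA6 peaks (blue, below) along each of the 7 genes, as the distance in kb of the peak midpoint from the gene start. Grey bars are the genes, thin lines the 50 kb flanks, and filled symbols peaks that overlap a peak of the other list (the symbols of the SPDEF peaks at EPCAM coincide). CDH1 has 3 GATA6 peaks and no SPDEF peak, and at CTNND1 most GATA6 peaks lie 17.0 to 39.5 kb into the gene.

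At CDH1 (chromosome 16, 68771 to 68870 kb) there were 0 SPDEF peaks and 3 GATA6 peaks. With 0 peaks in 199 kb the exact Poisson interval allows up to 20.7 times the list density, so a density well above that of the list would still be compatible with this count. The nearest SPDEF peaks lay 502 kb from the gene on the lower coordinate side (68268863 to 68268975) and 890.5 kb on the higher side (69760527 to 69761332). The GATA6 peaks lay 29.3 kb upstream of the start (68741584 to 68741764, 181 bp), 4.5 kb upstream (68766491 to 68766592, 102 bp) and 18.9 kb into the gene (68789766 to 68790090, 325 bp). All of them were narrower than the GATA6 list median of 346 bp, and the second was narrower than all but 3.07% of the list. The GATA6 density was 4.37 times that of the list (exact Poisson interval 0.902 to 12.8), an interval that includes 1. Of 15248 windows of 199 kb, 8.91% held 3 or more GATA6 peaks. Of these 1358 windows, 655 (48.2%) held no SPDEF peak, so among windows with as many GATA6 peaks the lack of an SPDEF peak was common. CDH3, another classical cadherin gene, neighbours CDH1, and the upstream flank cannot be assigned to either gene from positions alone.

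CTNND1 (chromosome 11, 57529 to 57587 kb) had the most peaks of both lists, 3 of SPDEF and 9 of GATA6 in 158 kb. The SPDEF ratio to the list density was 21.2 (exact Poisson interval 4.37 to 61.9) and the GATA6 ratio 16.5 (7.56 to 31.4). Of 19205 windows of that length, 0.984% held at least 3 SPDEF peaks and 0.214% at least 9 GATA6 peaks. In Giemsa-negative bands the shares were 1.49% and 0.258%, although CTNND1 itself lies in a Giemsa-positive band, 11q12.1. The GATA6 peaks formed a run inside the gene: 8 of the 9 had midpoints 17.0 to 39.5 kb from the start.

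The widest GATA6 peak at CTNND1 measured 1254 bp (57545336 to 57546589) and was wider than 95.7% of the list. It contained an SPDEF peak of 299 bp (57545734 to 57546032), 16.9 kb into the gene. A GATA6 peak of 920 bp (57566315 to 57567234) contained the SPDEF peak of 221 bp at 37.9 kb (57566804 to 57567024). Between and beside these pairs lay 6 GATA6 peaks with no SPDEF peak. Their widths were 127, 72, 808, 630, 317 and 196 bp, and the gaps to the nearest SPDEF peak ran from 752 to 7506 bp. The remaining pair lay 49.4 kb upstream, where an SPDEF peak of 402 bp (57479389 to 57479790) overlapped a GATA6 peak of 351 bp (57479419 to 57479769). This pair sits just inside the 50 kb limit, in a flank where the gene table places other genes (MED19, TMX2, SELENOH and BTBD18 neighbour CTNND1), and a 25 kb flank loses it. The first GATA6 peak outside lay 93.8 kb below the gene and the first on the other side 116.4 kb above it. SPDEF peaks outside were much farther, at 5948 kb and 758.2 kb.

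At EPCAM (chromosome 2, 47596 to 47615 kb) both lists had 2 peaks, and none lay in the gene or at its start. The SPDEF peaks were 14.2 kb upstream (47581809 to 47581869, 61 bp) and 13.8 kb upstream (47582129 to 47582232, 104 bp). The GATA6 peaks were 24 kb upstream (47571850 to 47572105, 256 bp) and 14.2 kb upstream (47581802 to 47581849, 48 bp). The overlap at EPCAM thus rests on 2 very short peaks that share 41 bp. Only 2.92% of SPDEF peaks were narrower than the 61 bp peak and 1.24% of GATA6 peaks narrower than the 48 bp peak. With peaks under 100 bp left out, EPCAM kept 1 peak of each list and no overlap. The SPDEF ratio was 18.8 (exact Poisson interval 2.27 to 67.8) and the GATA6 ratio 4.88 (0.591 to 17.6). The SPDEF interval counts the 2 SPDEF peaks as separate events although they lie close together. The flank of EPCAM on the side of its end held no peak of either list, and the next peaks on that side lay 926.1 kb (SPDEF) and 518.3 kb (GATA6) beyond the gene.

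The claudin genes differed in where their peaks lay. CLDN4 (chromosome 7, 73245 to 73248 kb) had 1 SPDEF peak and 4 GATA6 peaks. The GATA6 peaks surrounded the gene at 2.6 kb upstream (73242048 to 73242669, 622 bp), at the start (the 443 bp peak given above), 2.4 kb downstream of the start (73247105 to 73247745, 641 bp) and 20.5 kb downstream of it (73265036 to 73265887, 852 bp). The SPDEF peak of 227 bp (73265499 to 73265725) lay inside the last of these, and the 3 GATA6 peaks at the gene itself were 17754 to 22830 bp from it. The GATA6 ratio was 11.3 (exact Poisson interval 3.07 to 28.9), and 1.71% of windows of 103 kb held as many. The SPDEF ratio of 10.8 (0.274 to 60.4) has an interval that includes 1.

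CLDN7 (chromosome 17, 7163 to 7167 kb, minus strand) had 2 peaks of each list, and they coincided. The pair 11.4 kb from the start, past the end of the gene, had nearly the same edges: 7155548 to 7155747 for SPDEF and 7155549 to 7155758 for GATA6, with 199 bp in common. In the pair upstream, at 43.4 kb for SPDEF (7210286 to 7210509, 224 bp), the SPDEF peak lay inside a GATA6 peak of 633 bp (7210273 to 7210905). The SPDEF ratio was 21.5 (exact Poisson interval 2.60 to 77.5) and the GATA6 ratio 5.58 (0.676 to 20.2). The gene table places 11 other protein-coding genes within 50 kb of CLDN7, against 1 to 4 for the other members, so these pairs lie in a stretch shared by many genes.

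ESRP1 (chromosome 8, 95653 to 95720 kb) was the gene with an SPDEF peak at its start. That peak of 196 bp (95652807 to 95653002) reached the start as the interval gives it, to 1 kb, and no GATA6 peak overlapped it. A wider SPDEF peak of 533 bp lay 1.5 kb upstream (95651191 to 95651723), wider than 86.3% of the list, and overlapped the single GATA6 peak at the gene (95651312 to 95651671, 360 bp). The gap from the peak at the start to that GATA6 peak was 1136 bp. ESRP1 was the one gene with more SPDEF than GATA6 peaks. Its SPDEF ratio was 13.4 (exact Poisson interval 1.62 to 48.3) and its GATA6 ratio 1.74 (0.0440 to 9.68), and 29.2% of windows of 167 kb held at least 1 GATA6 peak. With a count of 1 the GATA6 list cannot be told apart from its own genome-wide density here.

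At ST14 (chromosome 11, 130029 to 130081 kb), both SPDEF peaks overlapped a GATA6 peak. The SPDEF peak 11.8 kb upstream measured 232 bp (130017045 to 130017276) and lay inside a GATA6 peak of 1540 bp (130016347 to 130017886), the widest at any of the 7 genes and wider than 98.1% of the GATA6 list. The SPDEF peak 7.3 kb into the gene (130036245 to 130036453, 209 bp) shared 203 bp with a GATA6 peak of 229 bp (130036219 to 130036447). The remaining GATA6 peak, 22.7 kb into the gene (130051389 to 130052082, 694 bp), had no SPDEF peak. The SPDEF ratio was 14.7 (exact Poisson interval 1.78 to 53.0) and the GATA6 ratio 5.73 (1.18 to 16.7). The nearest peaks beyond the 50 kb limit lay 89.3 kb below the gene, an SPDEF peak (129939362 to 129939660) and a GATA6 peak that contained it (129939324 to 129939682).

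**Figure D2:**
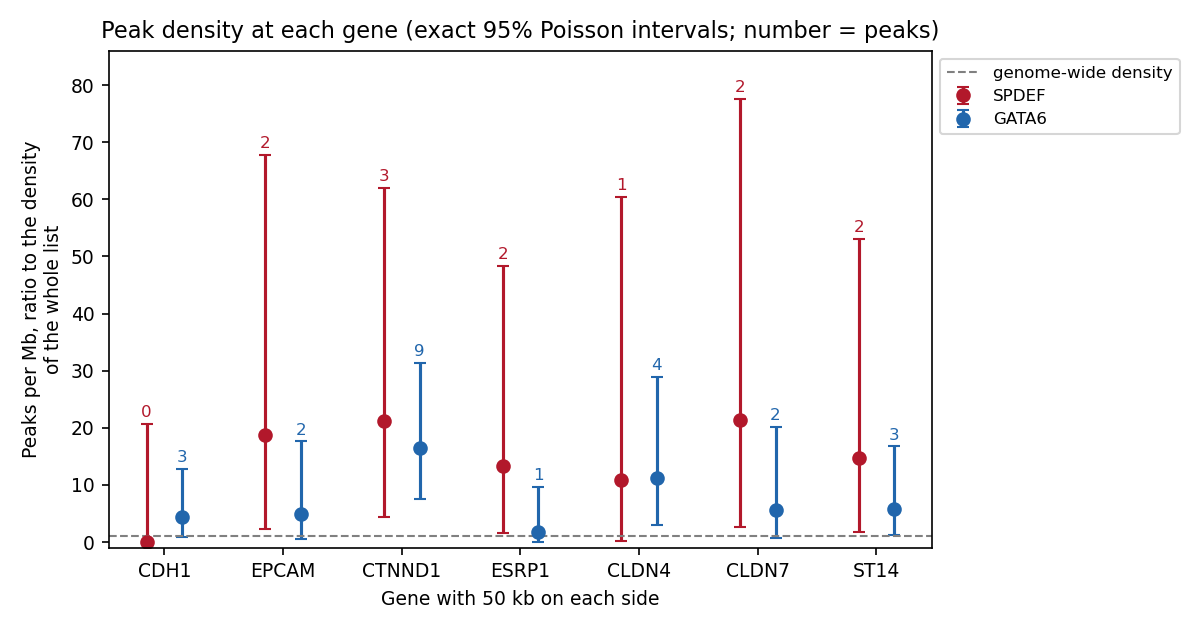
Peaks per Mb at each gene with its 50 kb flanks, as a ratio to the density of the whole list, for SPDEF (red, left) and GATA6 (blue, right). Bars are exact 95% Poisson intervals, numbers are peak counts and the dashed line is a ratio of 1. The intervals are wide and overlap between genes, and the SPDEF intervals of CDH1 and CLDN4 and the GATA6 intervals of CDH1, EPCAM, ESRP1 and CLDN7 include 1.

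The order of the genes by SPDEF ratio was CLDN7, CTNND1, EPCAM, ST14, ESRP1, CLDN4 and CDH1, and by GATA6 ratio CTNND1, CLDN4, ST14, CLDN7, EPCAM, CDH1 and ESRP1. Neighbours in either order did not differ beyond their intervals. For SPDEF the intervals of all 7 genes overlapped one another. For GATA6, too, the intervals of CTNND1 (7.56 to 31.4) and ESRP1 (0.0440 to 9.68) overlapped, although these genes had 9 peaks and 1 peak.

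Most SPDEF peaks at these genes lay on a GATA6 peak, as did most in the whole SPDEF list. A GATA6 peak was present at 10 of the 12 SPDEF peaks (83.3%, with a 95% Wilson interval of 55.2 to 95.3). Over the whole SPDEF list the share was 64.7%, which this interval includes. Of the 24 GATA6 peaks, 10 overlapped an SPDEF peak (41.7%, 24.5 to 61.2), against 16.1% of the whole GATA6 list. Where 50% of both peaks had to be covered, the shares were 41.7% of the SPDEF and 20.8% of the GATA6 peaks, against 31.1% and 8.09% of the whole lists. Peaks of 1 gene share their surroundings and are not replicates, so no test was made. The SPDEF peaks that overlapped no GATA6 peak were those at the ESRP1 start and 13.8 kb upstream of EPCAM, and both lay near one, at 1136 bp and 280 bp. Among the GATA6 peaks that overlapped no SPDEF peak, the 3 at CDH1 were 472609 to 520791 bp from the nearest SPDEF peak. Those at the other genes were 752 to 22830 bp from one.

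The GATA6 peak was the wider one in 7 of the 10 pairs, and in 5 of them the SPDEF peak lay entirely inside it. Over the 1827 overlapping pairs of the whole lists these shares were 73.2% and 57.9%, so neither count sets the 7 genes apart. In the pairs at CLDN7 11.4 kb from the start and at ST14 7.3 kb into the gene, the widths were nearly equal. Midpoints were 4.5 to 191.5 bp apart, with a median of 39.25 bp, against 88 bp over all pairs. In the pairs at CLDN7 11.4 kb from the start, at CTNND1 49.4 kb upstream and at EPCAM the offsets were 6, 4.5 and 13.5 bp. In the wide GATA6 peaks the offsets varied. They were 44 bp in the 1540 bp peak at ST14, 79.5 bp in the 1254 bp and 139.5 bp in the 920 bp peak at CTNND1, 150.5 bp in the 852 bp peak at CLDN4 and 191.5 bp in the 633 bp peak at CLDN7.

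**Figure D3:**
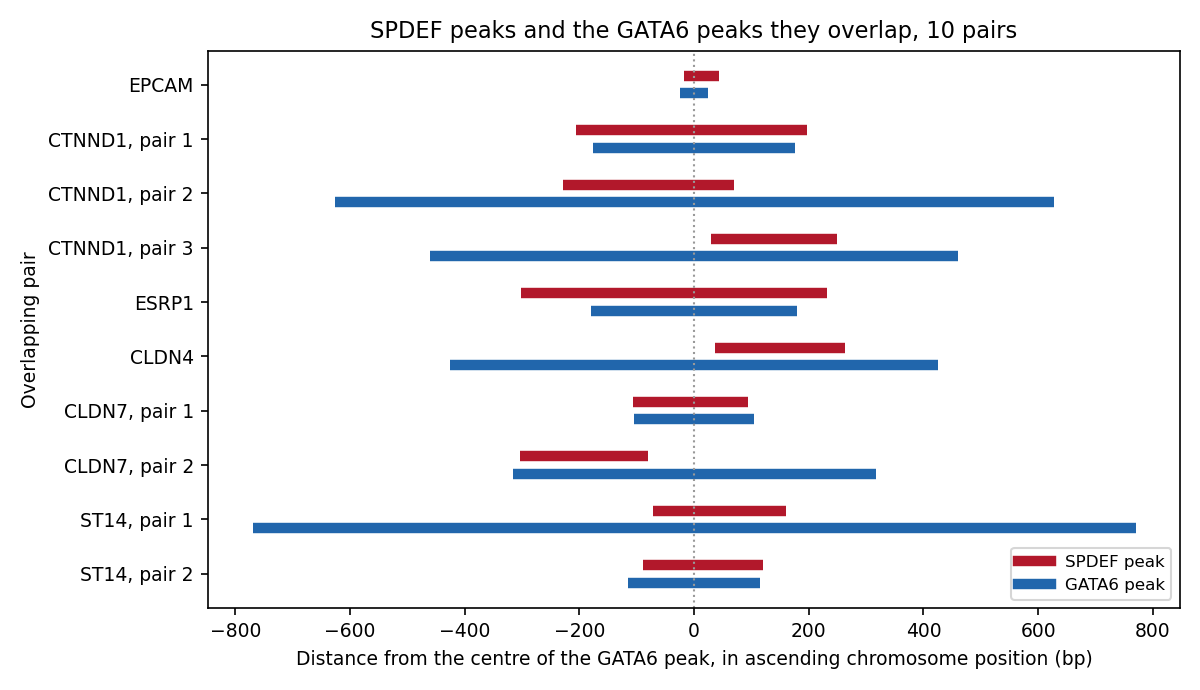
The 10 overlapping pairs at the 7 genes, each SPDEF peak (red, upper bar) drawn to scale against the GATA6 peak it overlaps (blue, lower bar), in bp from the centre of the GATA6 peak. In 7 pairs the GATA6 peak is the wider one, and in 5 the SPDEF peak lies inside it.

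Of the SPDEF peaks at the 7 genes, 6 lay in the upstream flanks, 3 in gene bodies, 2 in the downstream flanks and 1 within 1 kb of a start. The GATA6 peaks numbered 9 upstream, 12 in gene bodies, 2 downstream and 1 at a start. All 3 SPDEF peaks in gene bodies, at CTNND1 and ST14, overlapped a GATA6 peak, while 9 of the 12 GATA6 peaks in gene bodies had no SPDEF peak. The peak of each list at a start was on a different gene, SPDEF at ESRP1 and GATA6 at CLDN4, and neither overlapped the other list.

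The SPDEF peaks at these genes were mostly narrow. Their median width was 222.5 bp (quartiles 199 and 248.8, range 61 to 533), against 268 bp in the whole list (208 and 391), and 3 of the 12 exceeded the list median. These were the ESRP1 peak of 533 bp and the CTNND1 peaks of 402 and 299 bp. The GATA6 peaks had a median of 355.5 bp (quartiles 206.5 and 654.2, range 48 to 1540), against 346 bp in the whole list (235 and 641), and 13 of the 24 exceeded the list median. GATA6 peaks that overlapped an SPDEF peak had a median of 496.5 bp (range 48 to 1540), against 321 bp (72 to 808) for the other 14. The ranges overlap, and the same split was not made over the whole list.

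**Figure D4:**
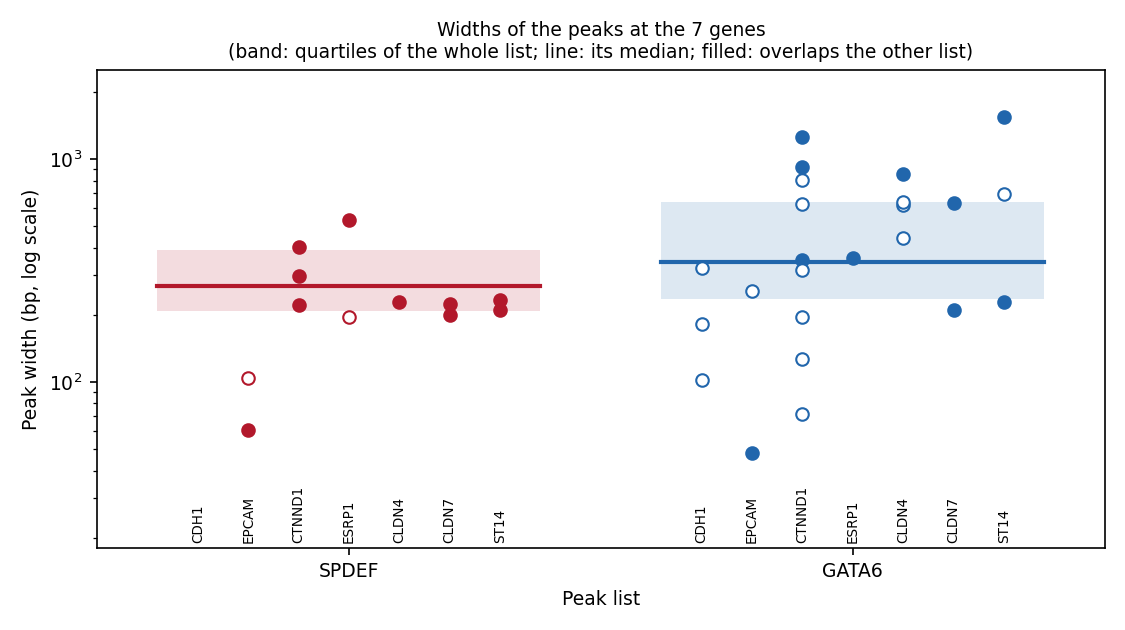
Widths in bp (log axis) of the 12 SPDEF and 24 GATA6 peaks, in columns by gene, filled where they overlap a peak of the other list. Bands are the quartiles of each whole list and lines its median. SPDEF peaks at EPCAM (61 and 104 bp) fall below the band, and GATA6 peaks at CTNND1 (1254 bp) and ST14 (1540 bp) lie far above it.

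Other genes of epithelial junctions could be tied to the peaks only through their cytogenetic band, and a band holds many genes. Bands were tested with an exact Poisson test against the number given by length, with Benjamini-Hochberg adjustment over 862 bands. The p-values treat peaks as independent and are too small where peaks cluster. A list of 41 genes of adherens and tight junctions, desmosomes, polarity, membrane proteases and basal adhesion fell in 33 bands. Of these, 7 (21.2%) passed for SPDEF, against 9.51% of all bands, and 12 (36.4%) for GATA6, against 16.8%. These include bands that also hold a member: 7q11.23 (CLDN3 and CLDN4) in both lists and 16q22.1 (CDH3, ESRP2 and CDH1) for GATA6. Of the 31 bands without a member, 6 (19.4%) passed for SPDEF and 10 (32.3%) for GATA6. With the expected number taken from protein-coding genes per band, 3 of these 31 (9.68%) passed for SPDEF and 8 (25.8%) for GATA6, against 8.24% and 25% of 813 bands with such genes. On that basis the shares were near those of all bands and are no result about the junction genes. Of the bands that passed per gene, 2 of the 3 and 6 of the 8 had also passed by length. By length, and so with no allowance for genes per band, the median ratio over the 33 bands was 1.37 for SPDEF and 1.38 for GATA6. Over all bands these medians were 0.485 and 0.829.

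The SPDEF bands past the threshold were those of CGN, a cytoplasmic tight-junction protein (1q21.3, 23 peaks, ratio 5.46), PKP2, a desmosomal plaque protein (12p11.21, 4.72), PARD6B, of the Par polarity complex (20q13.13, 3.61), CLDN3 (7q11.23, 2.95), PRSS8, a membrane-anchored serine protease (16p11.2, 2.75), OCLN and MARVELD2, tight-junction membrane proteins (5q13.2, 2.73), and PPL, another desmosome-associated protein (16p13.3, 2.26). For GATA6 they included those of PKP2 (4.13), CLDN1 (3q28, 3.43), CGN (2.53), OCLN and MARVELD2 (2.31), CDH3 and the ESRP1 paralogue ESRP2 (16q22.1, 2.12), ITGA6 (2q31.1, 1.92), PARD6B (1.88), CLDN3 (1.81), SPINT2 (19q13.2, 1.79), LAMB3 (1q32.2, 1.75) and CLDN23 (8p23.1, 1.56). Of these bands, 5 passed in both lists. Counted per protein-coding gene, only the bands of PKP2 and PARD6B among the SPDEF bands named still passed. Among the GATA6 bands named, those of PKP2, CLDN1, OCLN and MARVELD2, ITGA6 and LAMB3 still passed, that of PARD6B had a ratio of 1.59 and did not pass, and the ratios of CGN (0.510), CDH3 and ESRP2 (0.558), SPINT2 (0.398), CLDN23 (0.739) and CLDN3 (0.885) were below 1.

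The bands of the 7 members hold the peaks described above, at genes chosen with earlier results known. Whether such a band passes the threshold is therefore no test of these genes, and the counts are a description only. By length, 4 of the 7 were past the threshold for SPDEF, against 9.51% of all bands, and 5 for GATA6, against 16.8%, with 3 in both lists. With the wider 50% of peaks, 0 were past it for SPDEF, against 5.68% of all bands, and 3 for GATA6, against 10.8%. SPDEF ratios past the threshold by length were 3.72 in 11q24.3 (ST14), 3.19 in 17p13.1 (CLDN7), 2.95 in 7q11.23 (CLDN4) and 2.60 in 2p21 (EPCAM). Those of 11q12.1 (CTNND1, 2.66), 8q22.1 (ESRP1, 1.96) and 16q22.1 (CDH1, 1.36) were not past it. GATA6 ratios past it were 2.90 in 11q24.3, 2.52 in 2p21, 2.14 in 11q12.1, 2.12 in 16q22.1 and 1.81 in 7q11.23, and those of 8q22.1 (1.37) and 17p13.1 (0.829) were not.

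Counted per protein-coding gene, 11q24.3 (4.51) and 2p21 (2.81) were past the threshold for SPDEF, and 11q24.3 (3.52), 2p21 (2.71) and 8q22.1 (1.88) for GATA6. The GATA6 ratios of 11q12.1 (0.555), 16q22.1 (0.558) and 7q11.23 (0.885) were then below 1. The SPDEF ratios of 11q12.1 and 17p13.1 were 0.688 and 0.728, although CTNND1 and CLDN7 with their flanks held 3 and 2 SPDEF peaks.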

How the data were processed

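HPAF-II chromatin was profiled with CUTANA ChIC/CUT&RUN reagents and sequenced from NEBNext Ultra II libraries, per the labels' protocols. The tools MACS2 2.2.7.1, Bowtie2 2.4.4, deepTools and SAMtools 1.14 and the builds hg19 and mm10 are named, without their roles, in the submitters' processing notes. Each deposited peak list holds the chromosome, start and end of its peaks. The sources used here do not give the peak threshold, the control or whether the 3 libraries of a target were pooled. In hg19, 0 peaks ended past a chromosome, against 18 SPDEF and 29 GATA6 peaks in hg38. Libraries for IgG and H3K4me3 (1 each in HPAF-II) and the mouse list were not used.

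The members and the gene list were chosen with earlier results of these data known. Gene ends come from the rule, to 1 kb on hg19, and positions count from 1. Strands of CLDN4 and CLDN7 come from the promoter table, and those of the other genes are general knowledge. A peak was at a gene if it overlapped the gene or its 50 kb flanks by at least 1 bp, and overlap between lists was also at least 1 bp. All members and all their peaks are named. Other genes are named where their band passed an adjusted p of 0.05 or holds a member, except 1 that is counted but not reported by name here. Neighbouring genes and bands of genes came from the RefSeq table of GRCh38.p14, by name only. The R packages circlize 0.4.16 (bands) and GenomeInfoDb 1.38.1 (chromosome lengths) ran under R 4.3.3. Counts, overlaps and the band test ran in Python 3.11.15 with scipy 1.17.1, pandas 2.3.3, numpy 2.4.6 and matplotlib 3.10.9, and were tested on simulated data.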

Additional observations from a re-analysis of the deposited data

How the results depend on the processing

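No paired analysis was possible because the 3 libraries behind a list are not separate in it. For the same reason no library could be left out. The other flanks, the midpoint rule, a 100 bp minimum, the other densities and leaving out each gene in turn kept the density ratios and the shares of overlap within the 95% intervals of the values reported, except that a 10 kb flank gave a GATA6 ratio of 11.16 and left 4 genes with an SPDEF peak. With the 10 kb flank, 6 genes had a GATA6 peak, EPCAM being the one without. A 25 kb flank and the 100 bp minimum kept the median widths within the members' quartiles. Without CTNND1, the gene with the most peaks, the ratios were 11.9 for SPDEF and 5.16 for GATA6. The wider 50% of each list stood in for a stricter threshold, though the lists hold no score to show that width follows peak strength. The SPDEF ratio was then 6.67, below the interval of 6.91 to 23.4, but it rests on 3 peaks and no interval is given for it. An SPDEF peak remained at 2 genes (CTNND1 and ESRP1). GATA6 peaks remained at 5 genes, not at CDH1 or EPCAM. With these wider peaks, 3 of 3 SPDEF peaks (100%) and 3 of 13 GATA6 peaks (23.1%) overlapped, against 52.2% and 13.2% of the lists. With 50% of both peaks covered the shares were 41.7% and 20.8%, against 31.1% and 8.09% of the lists. Bands of the other junction genes past the threshold numbered 2 for SPDEF and 5 for GATA6 with the wider peaks, and 3 and 8 per protein-coding gene. Member bands numbered 0 for SPDEF and 3 for GATA6 with the wider peaks, and 2 and 3 per protein-coding gene. The Giemsa-negative windows and the bands without a member (6 for SPDEF and 10 for GATA6) were chosen after seeing the data. Counts of 0 to 9 peaks per gene limit every comparison.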
